A study of Pichia kudriavzevii with 6 samples.

Results

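The 68 genes described here were those of the yeast Pichia kudriavzevii whose RNA was lower in both media with succinic acid than in the medium with glucose alone, out of 5464 genes in the deposited files. All cells were of strain CY902 with the delta-URA3 genotype, so every group shared the deletion of URA3, which encodes orotidine phosphate decarboxylase, an enzyme of uracil synthesis, and is often used as a selection marker. Cells from a glucose preculture of 24 hours were washed and placed for 3 hours, at pH 5.0, 30 °C and 250 rpm, in synthetic medium with 1 of 3 carbon supplies. SoleS held succinic acid at 2% (w/v) and no glucose, GS held glucose at 2% together with succinic acid at 2%, and SoleG held glucose at 2% alone. Each medium had 2 libraries, and the labels do not say whether these came from separate cultures. The cells that could be compared were therefore of 1 strain with 1 marker deletion, and a library's spread may be technical.

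Yeasts generally use glucose before other carbon sources, and glucose represses many genes for the uptake and oxidation of alternatives. Succinic acid is a dicarboxylic acid and an intermediate of the tricarboxylic acid cycle, and it enters cells through carboxylate transporters or, when protonated, partly by diffusion. The series set out to identify transporters of such C4 acids. Its design has no medium without either carbon source, so in SoleS the presence of succinic acid and the absence of glucose cannot be told apart. In GS, succinic acid cannot be told apart from what came with it when the pH was set.

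Membership was set from the measured values. The counts of each library were scaled to CPM (counts per 1000000 of its total), the 2 libraries of a medium were averaged, and 1 was added. A member had to have a ratio of at most 0.6 for both GS/SoleG and SoleS/SoleG, a ratio above 1/8 for SoleS/GS, and a SoleG value of at least 10. Of 4816 genes that reached the SoleG value, 221 had a GS/SoleG ratio of at most 0.6. Of these 221, 71 also had a SoleS/SoleG ratio of at most 0.6, and 3 of the 71 fell out because SoleS/GS was at or below 1/8. Of the other 150 genes low in GS, 37 had a SoleS/SoleG ratio above 0.6 and at most 1, and 113 had more in SoleS than in SoleG. Because the rule used all 3 contrasts, the differences between media given for the members are descriptions. Counts of members called by a test are given with the share of all genes called, support nothing about the members, and come with no p-value for a single member.

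The files carry gene IDs of the form PK0150 and do not pair them with names, and 0 of the 5464 IDs matched the reference gene table. What the members encode is therefore not stated. For each comparison, the 2 members with the most extreme ratios at 50 CPM or more in the higher medium are given by ID, 7 in all, and other members by their coding length. Where 2 members share a length, the one meant is described by its level. Library totals lay between 6024768 and 6959188 counts. No member had a count of 0 in any library. The lowest member count in a library was 6 in SoleS, 10 in GS and 67 in SoleG. Counting intervals below cover counting error only.

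**Figure D1:**
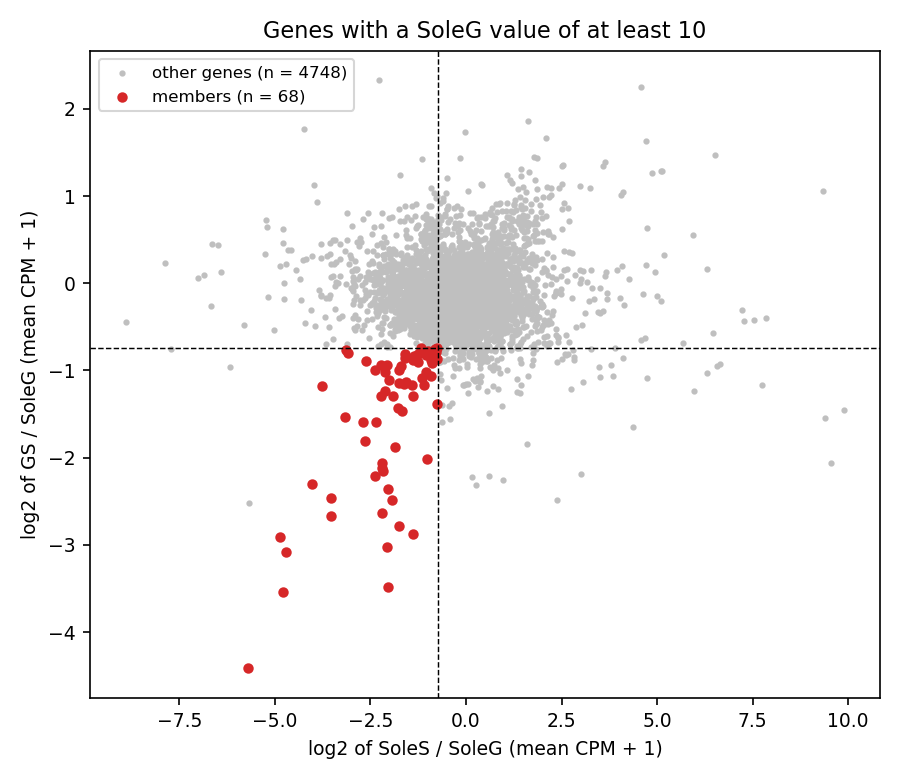
Each point is 1 of the 4816 genes with a SoleG value of at least 10, placed by the log2 ratio of SoleS to SoleG (horizontal) and of GS to SoleG (vertical), both on mean CPM + 1. The 68 members (red) fill the corner below both dashed lines, which mark the ratio of 0.6 that chose them.

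The members' drop was deeper in SoleS than in GS at the median, and their joint share of the counts was smallest in SoleS. Together they held 0.674% ± 0.007 of all counts in SoleS, 1.15% ± 0.03 in GS and 3.05% ± 0.18 in SoleG (SD, n = 2). The median member had 25.03 CPM in SoleS, 31.5 CPM in GS and 85.4 CPM in SoleG. The median SoleS/SoleG ratio was 0.292 and the median GS/SoleG ratio was 0.447, a 3.42-fold and a 2.24-fold lower level. Over all 4816 genes with a SoleG value of at least 10, the median log2 ratio was -0.25 for SoleS/SoleG and -0.15 for GS/SoleG, beside -1.77 and -1.16 over the members.

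Both libraries of a succinic acid medium lay below both SoleG libraries for every member. This held for 68 of 68 members in SoleS and for 68 of 68 in GS, while 51.5% and 52.2% of the 5280 genes tested had such an order. With edgeR's quasi-likelihood test across all 5280 genes, all 68 members had an adjusted p below 0.05 and a lower level in SoleS than in SoleG, and likewise in GS. Among all genes tested, 40.9% were called lower in SoleS, 17.6% lower in GS, and 7.44% lower in both. The rule chose the members on these same contrasts, so nothing is read from their counts.

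The depth of the drop varied widely among members. In GS, 42 of the 68 were at least 2-fold lower than in SoleG, 19 at least 4-fold and 5 at least 8-fold. In SoleS, 58 were at least 2-fold lower, 30 at least 4-fold and 11 at least 8-fold. Only 15 members were at least 4-fold lower in both media, and 3 were at least 8-fold lower in both. The ratios ran from 0.0192 to 0.592 for SoleS/SoleG and from 0.0469 to 0.599 for GS/SoleG.

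The deepest drop in both media was that of PK5146. PK5147, which follows it in the numbering, had the second-lowest GS/SoleG ratio and the third-lowest SoleS/SoleG ratio on mean CPM + 1. PK5146, with a coding length of 699 bases, had 0.862 and 1.49 CPM in SoleS, 3.85 and 4.79 CPM in GS, and 123.6 and 101.4 CPM in SoleG. The groups did not overlap, and the SoleS libraries held 15 counts in all, against 1497 in SoleG. Divided by the library totals, these counts put SoleS 97.4-fold lower (95% exact counting interval 58.9 to 174). For GS, with 56 counts, the drop was 26.1-fold (20.0 to 34.8). PK5147, of 885 bases, had 2.44 and 4.32 CPM in SoleS, 8.75 and 9.89 CPM in GS, and 129.6 and 108.8 CPM in SoleG. Its libraries also fell into 3 separate levels. Its counts were 36.0-fold lower in SoleS (26.6 to 49.9) and 12.8-fold lower in GS (10.7 to 15.6) than in SoleG.

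PK0150, of 1899 bases, had the second-lowest SoleS/SoleG ratio, with far more counts. It had 51.3 and 48.1 CPM in SoleS, 187 and 207 CPM in GS, and 1649 and 1334 CPM in SoleG. The 3 media were again apart, with SoleS lowest. Its log2 fold change in edgeR was -4.75 ± 0.10 in SoleS and -2.77 ± 0.09 in GS (SE). The higher in SoleG of 2 members of 1104 bases behaved much like it, with 79.0 and 80.8 CPM in SoleS, 254 and 248 CPM in GS, and 2385 and 1871 CPM in SoleG. A further member, of 1674 bases, had 63.4 and 66.1 CPM in SoleS, 207 and 227 CPM in GS, and 1160 and 982 CPM in SoleG. In all 3 genes the 6 libraries formed the same 3 levels, with GS between SoleS and SoleG.

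**Figure D2:**
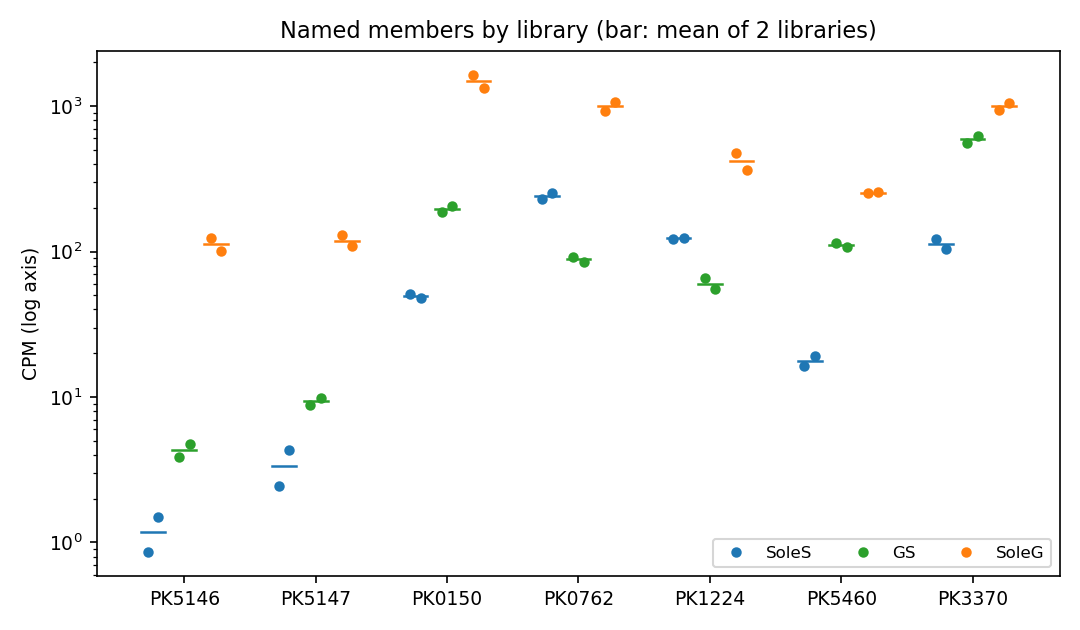
CPM on a log axis for the 7 members given by ID, 2 libraries (points) and their mean (bar) for SoleS, GS and SoleG. SoleG is highest for all 7, while SoleS is lowest for 5 of them and GS is lowest for PK0762 and PK1224.

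The members fell into 3 kinds by how SoleS compared with GS. A ratio of SoleS to GS of at most 1/1.5 put 28 members lowest in SoleS. A ratio of at least 1.5 put 6 members lowest in GS, and 34 lay in between. The median SoleS/GS ratio over the 68 was 0.763, with a range from 0.167 to 2.80. The median log2 ratio was -0.39 over the members and -0.07 over all 4816 genes.

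Both SoleS libraries lay below both GS libraries for 44 members and above both for 9, and 15 overlapped. Of all 5280 genes tested, 44.5% had the first order and 44.3% the second. In edgeR, 36 members were called lower and 7 higher in SoleS than in GS, beside 39.4% and 40.0% of all genes. The remaining 25 members did not reach an adjusted p of 0.05, which does not show that their levels were equal. These counts follow in part from the rule, which bounds SoleS/GS from below and both media from above.

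**Figure D3:**
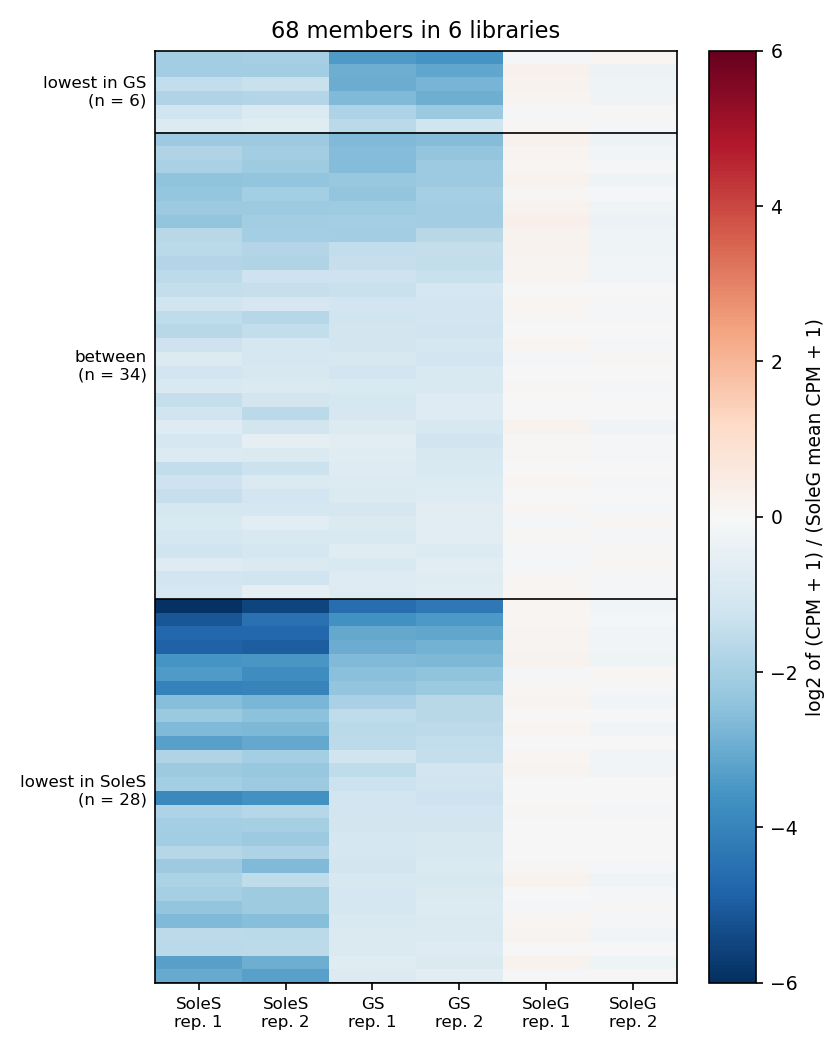
Rows are the 68 members, grouped as lowest in GS (6), in between (34) and lowest in SoleS (28). Columns are the 6 libraries, and the colour gives the log2 ratio of CPM + 1 to the SoleG mean. Both libraries of a medium take nearly the same shade, and every row is bluer in all 4 SoleS and GS libraries than in SoleG.

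Members lowest in SoleS were lower there than in GS by the way this kind was set. On mean CPM + 1, their drop in GS ran from 1.69-fold for PK3370 to 21.3-fold for PK5146. The median of their drops, taken gene by gene against SoleG, was 5.69-fold in SoleS and 2.31-fold in GS. PK5460, of 1572 bases, had the lowest SoleS/GS ratio. It had 16.2 and 19.3 CPM in SoleS, 115 and 108 CPM in GS, and 251 and 257 CPM in SoleG. The drop was larger in SoleS than in GS, and the groups did not overlap. Its log2 fold change was -2.65 ± 0.11 (SE) for SoleS against GS and -1.04 ± 0.08 (SE) for GS against SoleG.

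PK3370, of 3120 bases, followed. It had 123 and 103 CPM in SoleS, 561 and 621 CPM in GS, and 948 and 1054 CPM in SoleG. Its log2 fold change was -2.38 ± 0.09 (SE) for SoleS against GS, while its GS/SoleG ratio of 0.591 lay close to the limit for membership. With edgeR's TMM factors its log2 fold change for GS against SoleG was -0.62 ± 0.08 (SE), too small a drop for that limit. A member of 1221 bases had the next lowest SoleS/GS ratio, 0.205, with 3.45 and 4.48 CPM in SoleS, 24.2 and 22.2 CPM in GS, and 48.1 and 33.8 CPM in SoleG.

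The 6 members lowest in GS were lower there than in SoleS by the way this kind was set. The median of their drops, taken gene by gene against SoleG, was 3.01-fold in SoleS and 7.12-fold in GS. PK0762, of 1653 bases, had 232 and 252 CPM in SoleS, 92.5 and 84.2 CPM in GS, and 932 and 1070 CPM in SoleG. SoleS thus stood between the other media, with a log2 fold change of 1.46 ± 0.09 (SE) over GS and -1.90 ± 0.08 (SE) against SoleG. PK1224, of 612 bases, had 122 and 125 CPM in SoleS, 65.4 and 55.2 CPM in GS, and 479 and 364 CPM in SoleG. Its log2 fold change for SoleS against GS was 1.04 ± 0.11 (SE).

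The other 4 members of that kind covered a wide range of levels. The member of 1167 bases had 224 and 219 CPM in SoleS, 121 and 109 CPM in GS, and 1129 and 752 CPM in SoleG. The member of 780 bases had the highest SoleS/GS ratio of all, 2.80, at 34.2 and 38.3 CPM in SoleS, 11.6 and 13.1 CPM in GS, and 114 and 79.7 CPM in SoleG. It stayed below the 50 CPM asked of genes given by ID for that comparison. The member of 753 bases and the lower in SoleG of 2 members of 4482 bases were near the lower limit, at 10.52 and 11.05 CPM in SoleG on average. Their counts were 75 and 64 over both SoleS libraries and 44 and 26 over both GS libraries. The count ratio of SoleS to GS was 1.71 (95% exact counting interval 1.16 to 2.54) for the first and 2.47 (1.54 to 4.06) for the second. Both were placed in this kind by their SoleS/GS ratio, so these intervals are descriptions.

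The other 34 members had a SoleS/GS ratio within 1.5-fold. In edgeR, 8 of them were called lower and 1 higher in SoleS than in GS, and 25 were not called. Among all 5280 genes tested, 39.4% were called lower and 40.0% higher. That few of the 34 were called follows in part from the 1.5-fold limit, so nothing is read from these counts. The median drop of the 34 was 2.39-fold in SoleS and 2.06-fold in GS. An example from the 25 is the member of 2106 bases, with 43.5 and 44.5 CPM in SoleS, 48.6 and 51.7 CPM in GS, and 274 and 197 CPM in SoleG. Another of the 25, of 426 bases, had 22.3 and 26.9 CPM in SoleS, 21.8 and 28.4 CPM in GS, and 121 and 109 CPM in SoleG. In the first, the SoleS and GS libraries were apart by little, and in the second they overlapped.

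Most of the members' counts came from a few genes. The top gene, of 1434 bases, held 27.5% of the members' counts in SoleS, 30.3% in GS and 24.7% in SoleG. It had 1832 and 1878 CPM in SoleS, 3482 and 3497 CPM in GS, and 7402 and 7652 CPM in SoleG. Per kilobase of coding length it was also the highest member in SoleG, at 5249 CPM per kilobase. Together with the next 2, of 4548 and 1629 bases, it made up 55.0% of the members' counts in SoleS, 60.9% in GS and 47.3% in SoleG. The gene of 4548 bases had 1083 and 984 CPM in SoleS, 1740 and 1780 CPM in GS, and 3456 and 3551 CPM in SoleG. The gene of 1629 bases had 868 and 766 CPM in SoleS, 1702 and 1853 CPM in GS, and 3526 and 3300 CPM in SoleG. These 3 dropped alike, by 3.39-fold to 4.18-fold in SoleS and by 1.92-fold to 2.16-fold in GS.

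The 10 members with the highest SoleG values held 68.9% of the members' counts in SoleS, 74.6% in GS and 74.9% in SoleG. They were the 3 just described, the genes of 1104 and 1674 bases described with PK0150, the gene of 1167 bases, PK0150, PK0762, PK3370 and a gene of 1929 bases. The last had 165 and 165 CPM in SoleS, 119 and 125 CPM in GS, and 904 and 620 CPM in SoleG. Its SoleG libraries differed from each other more than its SoleS and GS libraries did.

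Members with higher SoleG values had deeper drops, as a description of a list chosen on these values. The 23 members with a SoleG value of at least 200 were 4.599-fold lower in SoleS and 2.68-fold lower in GS at the median. For the 26 with values of 50 to 200 these were 3.30-fold and 2.31-fold, and for the 19 below 50 they were 2.60-fold and 2.03-fold. Of the 23 highest, 14 were lowest in SoleS, 6 were in between and 3 were lowest in GS. Of the 19 lowest, 4, 13 and 2 were of these kinds. The added 1 draws the ratios of low genes towards 1, so part of this trend may come from it. The member of 630 bases, among the 19, had a SoleS/GS ratio of 1.64 on counts over library totals. On CPM + 1 it was 1.47, which put it in between.

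The SoleG libraries differed from each other for many members, and more so for those with a deep drop in GS. SoleG replicate 1 was above replicate 2 for 53 of the 68 members (77.9%) and for 2811 of the other 4748 genes with a SoleG value of at least 10 (59.2%). On CPM + 1 it was at least 1.2-fold higher for 24 members, and replicate 2 was at least 1.2-fold higher for none. Among the other 4748 genes, replicate 1 was at least 1.2-fold higher for 415 (8.74%) and replicate 2 for 193. For the 19 members at least 4-fold lower in GS, the median ratio of replicate 1 to replicate 2 was 1.26 (range 0.840 to 1.56). For the other 49 it was 1.08 (0.898 to 1.42). Across the 68 genes, the log2 ratio of the SoleG libraries and the log2 GS/SoleG ratio had a Pearson r of -0.37 and a Spearman rho of -0.44. Both axes use the SoleG libraries, and genes are not independent replicates.

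The drop in GS was shallower against SoleG replicate 2. For the 19 members at least 4-fold lower in GS, its median was 7.35-fold against replicate 1 alone and 5.26-fold against replicate 2 alone, and that of their drop in SoleS was 5.45-fold and 4.30-fold. Over the 68 members, 46 and 40 were at least 2-fold lower in GS against each. Of the 19 members at least 4-fold lower in GS, 18 remained so against SoleG replicate 1 alone and 16 against replicate 2 alone. All 19 stayed at least 2-fold lower against each. Over the 68 members, the smallest drop in GS was 1.60-fold against replicate 1 and 1.44-fold against replicate 2. The coefficient of variation between the 2 libraries had a median of 8.84% in SoleS, 6.42% in GS and 8.56% in SoleG over the members, and of 5.13%, 4.62% and 5.29% over the other 4748 genes. Levels were not matched. The median in SoleG was 85.4 CPM for the members and 73.3 CPM for the others. In SoleS and GS the members' medians were only 25.03 and 31.5 CPM, where counting error weighs more. What set the SoleG libraries apart for these genes was not tested.

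**Figure D4:**
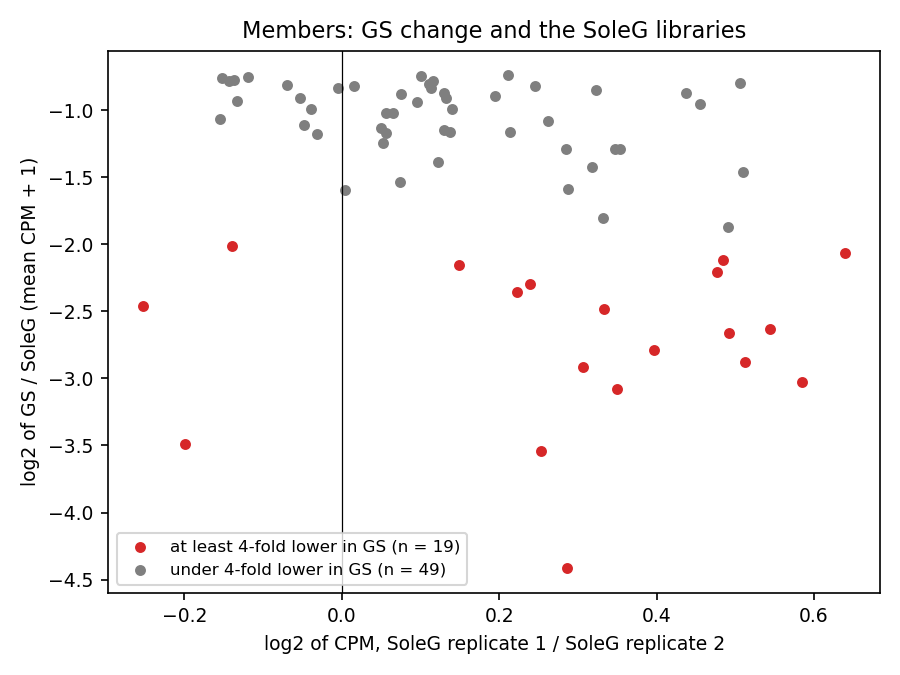
Each point is 1 of the 68 members, placed by the log2 ratio of CPM in SoleG replicate 1 to replicate 2 (horizontal) and by the log2 ratio of GS to SoleG (vertical, on mean CPM + 1). Of the 19 members at least 4-fold lower in GS (red), 16 lie right of the zero line, where replicate 1 is higher.

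How the libraries were scaled mattered for genes near the limits. The rule scales by total counts. With edgeR's TMM factors, which were 1.06 to 1.08 for SoleG and 0.957 to 0.973 for the other libraries, the median log2 fold change of all 5280 genes was -0.01 for GS against SoleG, beside -0.15 with total counts. For SoleS against SoleG the medians were -0.03 and -0.18. The median over the members was -1.04 with TMM factors and -1.18 with total counts for GS, and -1.67 and -1.82 for SoleS. All 68 members stayed below 0 in both comparisons under TMM, RLE, upper-quartile and total-count scaling. Under TMM-scaled CPM the rule gave 50 members, all of them among the 68. The other 18, PK3370 among them, owed their place to the scaling by totals.

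Genes just inside and just outside the ratio limit of 0.6 had nearly the same values, while the other limits fell in gaps. For GS/SoleG the nearest inside were 0.599 and 0.598 and the nearest outside 0.601 and 0.603. For SoleS/SoleG they were 0.592 and 0.591 inside and 0.6002 and 0.608 outside. For SoleS/GS there was a gap, from 0.167 and 0.193 inside to 0.111 and 0.0269 outside. For the SoleG value they were 11.52 and 12.05 inside and 7.46 and 6.49 outside.

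Members often had IDs that followed each other, a feature the rule did not use. Of the 68 members, 19 (27.9%) had a member as the next or the previous ID, in 8 pairs and 1 run of 3. Of the other 4748 genes, 99 (2.09%) had a member as a direct neighbour in the numbering. Whether the numbering follows the order of genes along the chromosomes is not given in the sources used here. If neighbouring genes overlap, their reads may have been shared, since the counting and its use of strand are not given either.

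Neighbours in the numbering seldom had the same depth of drop. In only 1 of the 9 runs did the largest and smallest GS drop lie within 1.5-fold of each other, and likewise in only 1 for SoleS. PK0150 was next to a member of 1248 bases with 25.5 CPM in SoleS, 37.4 CPM in GS and 67.4 CPM in SoleG on average, which was only 2.58-fold lower in SoleS and 1.78-fold lower in GS. The gene of 1674 bases was next to one of 639 bases that was 3.40-fold lower in SoleS and 2.21-fold lower in GS. In each of these pairs a gene with many counts and a deep drop stood beside one with fewer counts and a shallower drop. Other pairs were closer. PK5146 and PK5147 had 112.5 and 119.2 CPM in SoleG on average. On CPM + 1 they were 52.1-fold and 27.4-fold lower in SoleS, and 21.3-fold and 11.6-fold in GS. The pair of 705 and 1929 bases was 3.61-fold and 4.60-fold lower in SoleS, and 3.66-fold and 6.20-fold in GS. How often members that are not neighbours lie within 1.5-fold was not computed.

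The run of 3 held genes of 636, 1326 and 1077 bases. The first had 11.8 and 10.1 CPM in SoleS, 7.26 and 10.05 CPM in GS, and 52.1 and 44.7 CPM in SoleG. The second had 18.8 and 18.8 CPM in SoleS, 19.4 and 20.4 CPM in GS, and 104 and 74.6 CPM in SoleG. The third had 8.05 and 9.29 CPM in SoleS, 28.0 and 29.7 CPM in GS, and 87.9 and 83.5 CPM in SoleG. The first 2 had similar levels in both succinic acid media, while the third was clearly lower in SoleS than in GS.

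Genes next to a member that were not members themselves differed little from the rest in GS and somewhat more in SoleS. The 99 such genes had a median log2 ratio of -0.15 for GS/SoleG, equal to the -0.15 over all 4748 other genes. For SoleS/SoleG it was -0.36, against -0.24. A GS/SoleG ratio of at most 0.6 was found for 5 of the 99 (5.05%) and for 3.22% of the 4748. For SoleS/SoleG the shares were 37.4% and 29.1%.

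**Figure D5:**
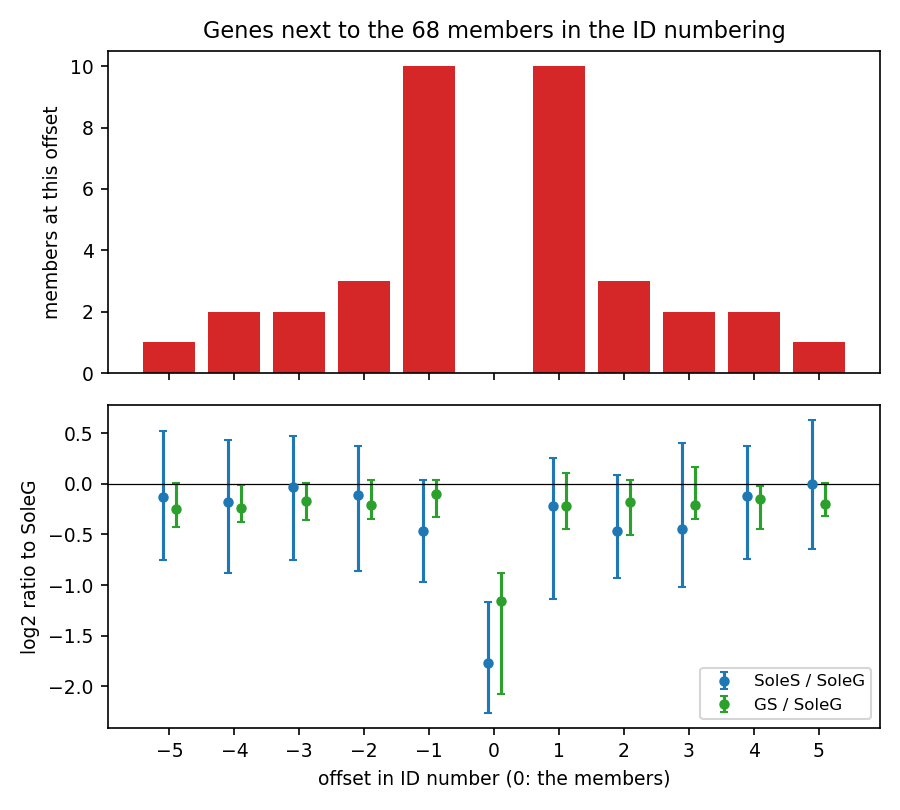
The upper panel counts how many of the 68 members have another member at each offset in the ID numbering, 10 at an offset of 1 on either side and at most 3 farther away. The lower panel gives the median log2 ratio to SoleG, with the quartiles as bars, for SoleS and GS: offset 0 shows the members and the other offsets show genes that are not members.

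The members' coding lengths, also not part of the rule, ran from 315 to 4608 bases. The median was 1496 bases, beside 1284 bases for the other 4748 genes. Genes over 3000 bases made up 11 of the 68 (16.2%) and 8.87% of the others, and genes under 600 bases made up 5 (7.35%) and 15.6%. The minimum of 10 in SoleG was set on counts not divided by length, so short genes had to be more abundant per base to enter either group. In 3 cases 2 members had the same coding length. Their sequences were not used here, so near-identical copies could not be recognised and their counts are uncertain.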

How the data were processed

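Each of the 6 libraries had 1 table of 5464 genes that gave, per the file headers, each gene's coding length, its count and its FPKM. The deposited counts are raw, whole numbers. The submitters' processing notes name Bowtie2 2.2.5 as a tool. How reads were counted (the tool, strand, repeated matches) and on which genome build is not given in the sources used here. The FPKM values deposited by the authors in the table of GS replicate 2 are 0.929 times what its own total gives, so FPKM was used in 1 alternative only. All 5464 coding lengths are multiples of 3.

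The members and lists were chosen with earlier results of these data known. Levels are CPM from total counts, given as mean ± SD or per library. For calls, genes with low counts were removed with filterByExpr, which left 5280 genes and all 68 members, and 1 model with the 3 media was fitted to all 6 libraries (edgeR 4.0.16 in R 4.3.3, TMM factors, quasi-likelihood test, 3 residual degrees of freedom, Benjamini-Hochberg adjusted p below 0.05). Standard errors of log2 fold changes were taken as their absolute value over the square root of F. The fit was tested on simulated data with changes in GS alone, read in GS against SoleG. Fewer genes were changed there than were called here, so changes as broad as these were not simulated. Genes given by ID are, per comparison, the 2 members with the largest drop and, for SoleS against GS, also the 2 with the largest rise, with at least 50 CPM in the higher medium and no overlap of libraries. Calls reflect the spread between libraries, which may be technical. With 2 libraries a medium, the smallest p of an exact permutation test on a single gene is 0.333. Alternatives were other scalings, DESeq2 1.42.0, limma-voom (limma 3.58.1), other filters, a replicate block, each library left out, and other limits of the rule.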

Additional observations from a re-analysis of the deposited data

How the results depend on the processing

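Membership moved with the limits, the scaling and the libraries, and a tighter or looser limit can only shorten or lengthen the list. The rule gave 50 members with CPM after TMM factors, 48 after upper-quartile factors, 75 and 57 with pseudocounts of 0.1 and 5, 77 without the SoleG minimum, 49 with a SoleG minimum of 50 and 81 with deposited FPKM. A ratio limit of 0.5 gave 40 members and a limit of 0.7 gave 198. With each library left out in turn there were 63 to 88 members, and 52 of the 68 were kept in all 6 of these settings, among them all 40 that were at least 2-fold lower in both media. The median log2 SoleS/GS ratio over the members was -0.46 to -0.33 with a library left out and -0.54 to -0.25 otherwise.

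The share of counts held by the members moved with the list. In SoleS, GS and SoleG it was 0.588%, 1.004% and 2.79% with TMM factors, 0.586%, 1.002% and 2.78% with upper-quartile factors, 0.381%, 0.594% and 1.99% with a limit of 0.5, 1.66%, 2.44% and 5.05% with a limit of 0.7, and 0.739%, 1.26% and 3.25% with deposited FPKM. In SoleS it was also 0.690% and 0.653% with pseudocounts of 0.1 and 5, and 0.655% with a SoleG minimum of 50. With a library left out the shares were 0.664% to 0.791% in SoleS, 1.15% to 1.26% in GS and 2.92% to 3.40% in SoleG.

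Of the counts of calls, only the members called higher in SoleS than in GS changed by over 1.5 times in any setting run, to 11 in place of 7 with upper-quartile factors, which moved the median of all genes in that comparison to 0.14. All genes called in that comparison, in either direction, numbered 4203 with those factors and 4191 in the main fit. Shares by direction were computed for the main fit only. There 40.0% of all genes were called higher and 39.4% lower in SoleS than in GS, and 7.44% lower in both comparisons with SoleG. The rule used these contrasts, so a stable count of members called supports nothing about them. With a library left out, the lone library of a medium is assumed to vary like the others. Counts of calls from those fits are therefore not given. The log2 fold change of PK1224 in SoleS against GS was 0.91 to 1.17 with a library left out. Differences between replicates 1 and 2 correlated between media at 0.05 (SoleS and GS), -0.10 (SoleS and SoleG) and -0.04 (GS and SoleG), so the numbers were not taken as pairs. The replicate block changed no count of calls by over 1.5 times: it gave 1910, 4142 and 4162 called genes for GS against SoleG, SoleS against SoleG and SoleS against GS, and 68 members called lower in both comparisons with SoleG. The members with the fewest counts, such as PK5146 with 15 in SoleS, are limited by depth: its log2 fold change in SoleS against SoleG was -6.84 to -6.08 with a library left out.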

Other observations

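The members' coding lengths were bunched. Between 1500 and 1700 bases lay 14 of the 68 members (20.6%) and 376 of the other 4748 genes with a SoleG value of at least 10 (7.92%). The band was chosen after the lengths were seen, so the shares are a description and were not tested. PK0762, PK5460 and the members of 1629 and 1674 bases are among the 14.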
